A study of Homo sapiens with 24 samples.

Results

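LNCaP cells kept under Siomycin A were compared between 48 h and 24 h of exposure, using the 6 arrays of these cells that were labelled with Siomycin, 3 at each time, out of 24 arrays in the series. LNCaP is an established human prostate cancer line with an active androgen receptor and intact p53, and Siomycin A, an antibiotic of the thiopeptide class, is known as an inhibitor of the proteasome that also reduces the transcription factor FOXM1. The other arrays held LNCaP in the solvent DMSO at 24 h and 48 h, and PC3, a prostate cancer line that grows without androgen signalling, under Siomycin or DMSO at the same times, with 3 arrays in each of 8 groups. Every gene of the platform's gene table was eligible, represented by its probe with the highest mean over all arrays, and 13344 of 20045 genes had a probe above background on at least 3 arrays and were tested. All groups were grown in 6-well plates, and the labels name no engineered change in either line. The dose is unsettled, being 0.5 microM in the protocol and 5 microM in the titles. Nothing in the labels says that the 3 arrays of a group came from separate cultures. The p-values therefore cover the spread among arrays, which may be technical.

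When the proteasome is blocked, cells are known to raise transcription of its subunit genes and of oxidative stress genes, through factors of the cap'n'collar family that bind antioxidant response elements, and to translate ATF4, the factor that switches on amino acid supply and, with longer stress, the death-linked factor CHOP. FOXM1 drives genes of the G2 and M phases, and p53 drives CDKN1A and other genes of cell cycle arrest. A comparison of 48 h with 24 h shows which of these responses had gone on, stayed or turned back between the times, and the same step in DMSO shows what culture time alone did.

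The line label was borne out by its markers. The LNCaP arrays lay above every PC3 array for 7 of 8 measured LNCaP markers, HOXB13 being the exception, and 10 of 10 PC3 markers lay lower in all LNCaP arrays, with 6 of these 10 not above background on any LNCaP Siomycin array. Of 7 measured markers of blood, endothelial and fibroblast cells, 2 were not above background on any of these arrays. For all 7, the log2 of summed linear levels was 8.42 to 8.61 at 24 h and 8.29 to 8.42 at 48 h. The number of probes above background was 18174 ± 131 (SD, n = 3) at 24 h and 18291 ± 164 at 48 h of Siomycin. The 24 h Siomycin arrays were the more scattered, with a median gene SD of 0.194 against 0.117 at 48 h on the log2 scale. Replicate 1 of the 24 h group stood furthest from its partners, at a root mean square distance of 0.374 log2 units against 0.336 and 0.261 for replicates 2 and 3. The count of changed genes was 2864 without that array, and calls lost without a single array are named with their genes.

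Between 24 h and 48 h of Siomycin, 2805 of 13344 genes changed (21% of those tested), 1441 upward (10.8%) and 1364 downward (10.2%), at an adjusted p under 0.05 in limma. A change of at least 2-fold was seen in 78 of the genes that rose and 58 of those that fell. Levels are log2 values of background-corrected, quantile-normalized intensity, and each fold change is a difference of such means. The median change over all genes was 0.005. Arrays of the 2 times did not overlap in 4137 genes (31%), and in 2636 of the 2805 called. For a called gene, absence of overlap thus adds little to the call. In DMSO the same interval gave 73 changed genes (0.547%), 45 higher (0.337%) and 28 lower (0.21%), with 1416 at an unadjusted p under 0.05. Leaving out any DMSO array in turn gave between 28 and 47. The 2 sets had 41 genes in common, which was 1.46% of the Siomycin set and 56.2% of the DMSO set. Of these, 21 were higher in both, 13 lower in both and 7 opposite. The test of the difference between the changes, Siomycin minus DMSO, called 1187 genes (8.9%), 601 positive (4.5%) and 586 negative (4.39%), and 1091 of them were also called in the Siomycin step. When arrays were centred on their medians and not quantile-normalized, the Siomycin step had 405 genes higher and 736 lower, a share of 35.5% higher in place of 51.4%, and the difference from DMSO was called for 157 genes. A fit of the 6 Siomycin arrays alone called 777 genes, and a fit of the 12 LNCaP arrays called 615 genes in the difference from DMSO. In RNA from whole cultures, fewer cells in a state and less RNA per cell cannot be told apart.

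**Figure D1:**
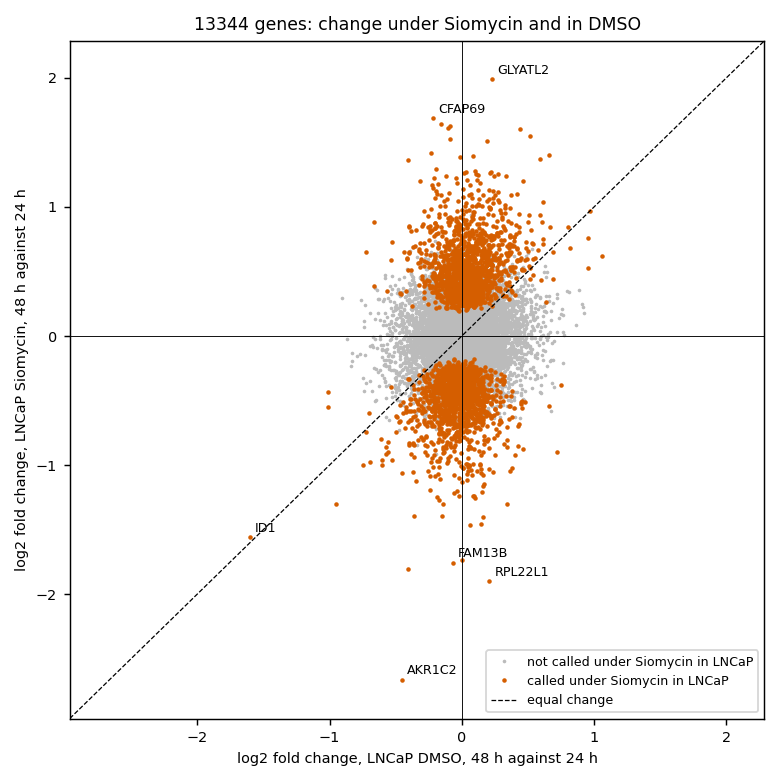
Log2 fold change from 24 h to 48 h under Siomycin (vertical) and in DMSO (horizontal) for each gene tested in LNCaP, with the 2805 genes called under Siomycin coloured. The cloud is tall and narrow, and ID1 lies on the line of equal change, at -1.56 under Siomycin and -1.60 in DMSO.

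The largest rises were of genes with unlike roles. GLYATL2, an enzyme that joins fatty acyl groups to glycine, read 5.67, 5.81 and 6.01 at 24 h and 7.85, 7.75 and 7.86 at 48 h. All 48 h arrays lay above all 24 h arrays, a log2 fold change of 1.99 ± 0.10 (SE, adjusted p = 1.8e-10), while the DMSO means were 5.83 and 6.06. CFAP69, a protein of cilia and flagella, went from 7.60, 7.43 and 7.58 to 9.14, 9.25 and 9.28, a change of 1.69 ± 0.13 (adjusted p = 5.3e-08). RASD1, a small GTPase first found as a dexamethasone-induced gene, rose by 1.64 ± 0.12 (adjusted p = 2.1e-08), from 8.07, 7.64 and 7.81 to 9.45, 9.49 and 9.49. In none of these 3 genes did the times overlap, and the difference from the DMSO step was 1.76 for GLYATL2, 1.91 for CFAP69 and 1.80 for RASD1, each called.

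TXNIP, which binds thioredoxin and restrains glucose uptake, followed another course. Its level was 9.90, 9.36 and 9.79 at 24 h and 11.41, 11.23 and 11.31 at 48 h, a rise of 1.63 ± 0.11 (adjusted p = 5.9e-09). The DMSO means were 11.56 and 11.47, so its difference from DMSO went from -1.87 at 24 h to -0.15 at 48 h. TARP, a transcript of the T cell receptor gamma locus that prostate cells make under androgen, was below DMSO at 24 h (-1.17) and above it at 48 h (0.61), with 7.16, 7.03 and 7.10 at 24 h, 8.40, 8.40 and 8.58 at 48 h and DMSO means of 8.26 and 7.85. Its rise was 1.36 ± 0.12 (adjusted p = 1.6e-07). SERPINA3, the secreted protease inhibitor antichymotrypsin, was already above DMSO at 24 h by 1.99 and rose by another 1.52 ± 0.18 (adjusted p = 5.2e-06).

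Further rises were those of VEGFB, a growth factor of the VEGF family (1.60 ± 0.11, adjusted p = 1.1e-08), RBPMS2, an RNA-binding protein (1.55 ± 0.13), DHDH, a dihydrodiol dehydrogenase (1.51 ± 0.21), SNX16, a sorting nexin of endosomes (1.41 ± 0.21), and IRF1, a transcription factor of the interferon response (1.39 ± 0.14, adjusted p = 7.8e-07). The probe with the lower mean for VEGFB gave 0.15, so the probes of this gene disagreed. For SNX16 the 24 h arrays read 5.68, 6.78 and 6.84, with replicate 1 low, and the difference from the DMSO step (0.75, adjusted p = 0.12) did not pass.

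AKR1C2, an aldo-keto reductase that inactivates dihydrotestosterone, had the largest fall of the genes named by rule. It read 8.67, 9.15 and 8.54 at 24 h and 5.86, 6.48 and 6.03 at 48 h, beside DMSO means of 5.85 and 5.39. The change was -2.66 ± 0.21 (SE, adjusted p = 5.3e-08), which took the difference from DMSO from 2.94 at 24 h to 0.73 at 48 h. AKR1C4, a close relative, fell from 7.27, 7.41 and 6.92 to 5.31, 5.49 and 5.60, a log2 fold change of -1.73 ± 0.20 (adjusted p = 5.2e-06), with 2 of the 3 arrays at 48 h above background. These genes are near-identical in sequence, and reads of one by the other's probe cannot be told apart here. Among the 7 tested aldo-keto reductases, a family gathered after the data had been seen, AKR1C3 also fell (-0.68 ± 0.18, adjusted p = 0.01), and AKR7A2 (0.47 ± 0.09) and AKR7A3 (0.41 ± 0.08) rose. All 3 calls were lost in a fit of the 6 Siomycin arrays alone, that of AKR1C3 also with the 12 LNCaP arrays and those of AKR7A2 and AKR7A3 with median centring.

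RPL22L1, a paralogue of a ribosomal protein, fell from 8.04, 8.06 and 7.95 to 6.03, 6.12 and 6.21, a change of -1.90 ± 0.08 (adjusted p = 6.6e-12). Its DMSO means were 8.22 and 8.43, so it stood near DMSO at 24 h and below all other LNCaP groups at 48 h. FAM13B showed the same order, from 8.63, 9.20 and 9.19 to 7.10, 7.38 and 7.26. ALG1, a mannosyltransferase of N-glycan assembly, was not above background on any 48 h array and was at least 3.35-fold lower than at 24 h (adjusted p = 1.8e-06).

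ID1, an inhibitor of helix-loop-helix factors, fell as much without the compound. Its step was -1.56 ± 0.10 (adjusted p = 8.5e-09) under Siomycin and -1.60 in DMSO (adjusted p = 3.7e-08), a difference of 0.04 (adjusted p = 0.91). Its level under Siomycin was above DMSO by 0.62 at 24 h and 0.66 at 48 h. POLR2L, a small subunit shared by the nuclear RNA polymerases (-1.46 ± 0.15, adjusted p = 1.2e-06), CBLN2, a secreted cerebellin (-1.46 ± 0.24), and SLC46A1, the proton-coupled folate transporter (-1.40 ± 0.19), were lower at 48 h with no overlap of arrays. The small nucleolar RNA SNORD52 (above background on 1 of 3 arrays at 48 h) and the non-coding RNA LINC00161 (on 2 of 3) were at -1.41 and -1.39, both called.

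**Figure D2:**
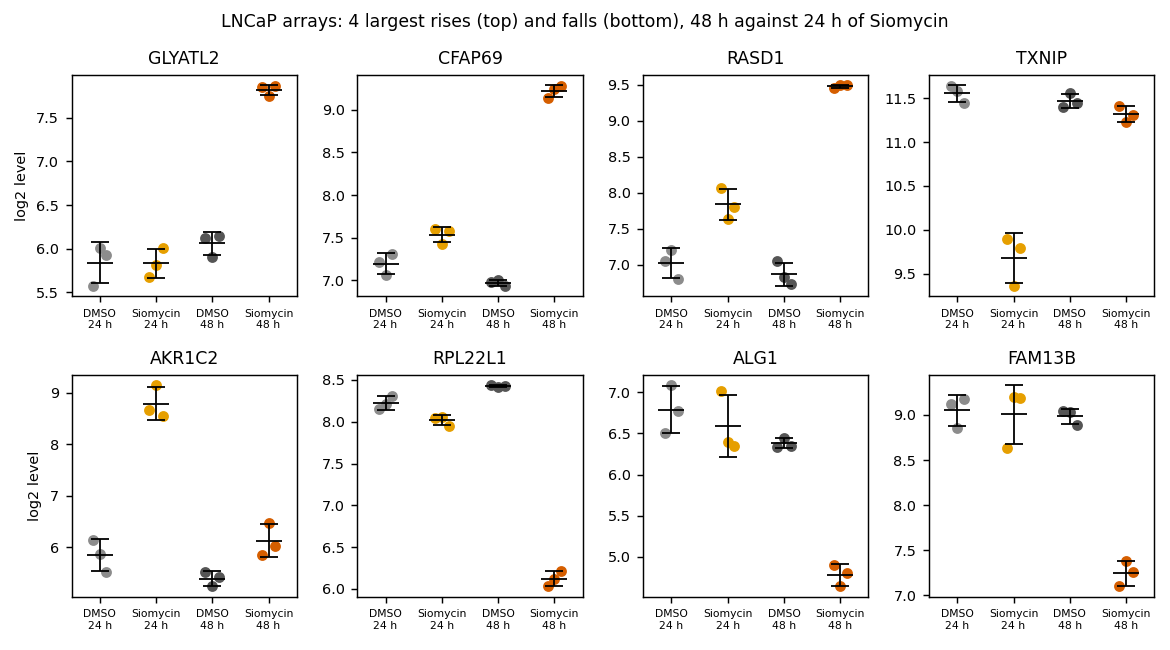
Log2 level on each LNCaP array (points), with the mean and SD of 3 arrays (black), for the 4 largest rises and the 4 largest falls between 24 h and 48 h of Siomycin. TXNIP returns to the DMSO level and AKR1C2 falls back towards it, whereas GLYATL2, CFAP69, RPL22L1 and FAM13B move away from DMSO only at 48 h.

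Among the lists fixed for this comparison, proteasome genes had the highest share called lower. Each list count of the step is to be read beside 10.8% higher and 10.2% lower over all genes. Counts of the difference from the DMSO step are to be read beside 4.5% positive and 4.39% negative. Of 31 tested subunit and assembly genes, 24 fell and 0 rose, with a median log2 fold change of -0.39 beside 0.005 for all genes and 0.01 for the same genes in DMSO. The list counted 13 lower with median centring and 4 in a fit of the 6 Siomycin arrays alone, and between 18 and 27 when a single array was left out. Set against DMSO, 9 members were higher and 0 lower at 24 h (median 0.19), and 0 were higher and 14 lower at 48 h (median -0.22). Over all genes tested, 10.5% were higher and 10.4% lower than DMSO at 24 h, and 19% and 18.4% at 48 h. These values share arrays with the step and are given side by side. The direct difference between the Siomycin and DMSO steps was called for 13 members, all negative. In PC3 the Siomycin step lowered 20 of the 31 and raised 0 (median -0.31), where 23.9% of all genes were called lower. The difference between the lines was called positive for 1 member and negative for 6, beside 18% and 10.7% of all genes.

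By place in the particle, the ATPase PSMC4 of the 19S base fell from 10.79, 10.20 and 9.98 to 9.14, 9.37 and 9.70 (-0.92 ± 0.19, adjusted p = 0.0019), although its DMSO step was -0.57 and the difference between them did not pass (adjusted p = 0.51). PSMD3, a 19S lid subunit, fell from 8.16, 7.95 and 8.02 to 7.20, 7.24 and 7.06 (-0.88 ± 0.12, adjusted p = 3e-05). In DMSO PSMD3 had means of 7.47 and 7.56, so that the 24 h Siomycin arrays lay above them and the 48 h arrays below. PSMD1, the largest subunit of the 19S base, read 9.92, 10.60 and 9.86 and then 9.10, 9.33 and 9.35 (-0.87 ± 0.13, adjusted p = 0.00012). The calls of PSMC4 and PSMD1 were lost in the 6-array fit.

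In the 20S core, PSMA2, an alpha ring subunit, was at -0.82 (adjusted p = 2.7e-05) and the catalytic beta subunit PSMB5 at -0.41 (adjusted p = 0.0014, lost in the 6-array fit). The 24 h arrays of PSMA2, at 8.68, 9.19 and 8.89, were all above its 48 h arrays, at 8.13, 8.13 and 8.04. PSMB2, which carries no catalytic site, went from 0.54 above DMSO at 24 h to -0.09 at 48 h. PSMG1, an assembly chaperone, differed from this course: it was at -0.18 against DMSO at 24 h (adjusted p = 0.16) and at -0.83 at 48 h. PSMA1, PSMA3, PSMA4, PSMA6, PSMC6, PSMD8 and PSMG2 did not pass, with fold changes between -0.27 and -0.10.

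The promoters of the subunits with the largest falls are shown because subunit genes are known to share antioxidant response elements. The sequences are RefSeq's, on GRCh38.p14, and run from 250 bases before to 50 after the gene start. The element's core was searched as TGACNNNGC on both strands, and capitals mark each match. PSMC4 lies on the plus strand at chr19:39970915-39971214, PSMD3 on the plus strand at chr17:39980557-39980856 and PSMD1 on the plus strand at chr2:231056617-231056916.
PSMC4: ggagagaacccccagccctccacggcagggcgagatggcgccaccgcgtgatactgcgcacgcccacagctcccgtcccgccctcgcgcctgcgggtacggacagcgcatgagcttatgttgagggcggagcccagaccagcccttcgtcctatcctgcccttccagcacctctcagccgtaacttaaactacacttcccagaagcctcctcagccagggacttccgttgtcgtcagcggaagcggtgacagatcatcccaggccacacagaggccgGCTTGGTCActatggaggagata
PSMD3: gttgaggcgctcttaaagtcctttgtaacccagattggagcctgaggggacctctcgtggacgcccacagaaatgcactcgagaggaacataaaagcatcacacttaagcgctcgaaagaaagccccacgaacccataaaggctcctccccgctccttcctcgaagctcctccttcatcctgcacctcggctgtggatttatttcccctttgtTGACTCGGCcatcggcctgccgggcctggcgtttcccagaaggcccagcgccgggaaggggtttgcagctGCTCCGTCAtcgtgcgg
PSMD1: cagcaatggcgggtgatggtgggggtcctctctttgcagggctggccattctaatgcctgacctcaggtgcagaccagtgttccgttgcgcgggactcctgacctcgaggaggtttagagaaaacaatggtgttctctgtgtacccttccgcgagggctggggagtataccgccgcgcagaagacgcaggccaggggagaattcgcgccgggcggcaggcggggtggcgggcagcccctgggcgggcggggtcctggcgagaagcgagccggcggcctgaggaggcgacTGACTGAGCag
A match stood in 8 of the 27 tested proteasome genes with a promoter in the table (29.6%), and in 7 of the 20 with a promoter that fell (35%). The share was 14.9% over the 10613 tested genes with a promoter and 13.5% over all 27305 promoters of the table. A match describes the letters of this window and is not a binding site.

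Genes of the oxidative stress factor NRF2, which uses the same element, moved down in the same interval. Of 25 tested, 14 fell and 1 rose (median -0.33), beside a median of -0.14 and 2 falls in DMSO. Set against DMSO of the same time, 17 were higher and 1 lower at 24 h (median 0.48). At 48 h 13 were still higher and 1 lower (median 0.29). Over all genes the shares were 10.5% and 10.4% at 24 h, and 19% and 18.4% at 48 h. NQO1, a quinone reductase, fell from 12.16, 12.04 and 11.98 to 11.10, 11.04 and 11.04 (-1.0 ± 0.07, adjusted p = 1.5e-08), and its step in DMSO was -0.60 (adjusted p = 0.00016). PIR, an iron-binding nuclear protein, was at -0.79 (adjusted p = 9.3e-07), with no call in DMSO. TXNRD1, the thioredoxin reductase, was at -0.49 (adjusted p = 5.8e-05). The member that rose was ABCC4, a drug and prostaglandin exporter that is also on the androgen list (1.09 ± 0.11, adjusted p = 7.5e-07). HMOX1, heme oxygenase, was at 0.15 (adjusted p = 0.48) and stayed 1.06 above DMSO at 48 h. The difference from the DMSO step was called for 3 members downward and 1 upward, beside 4.39% and 4.5% of all genes. The list counted 8 lower with median centring or with the 12 LNCaP arrays alone.

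**Figure D3:**
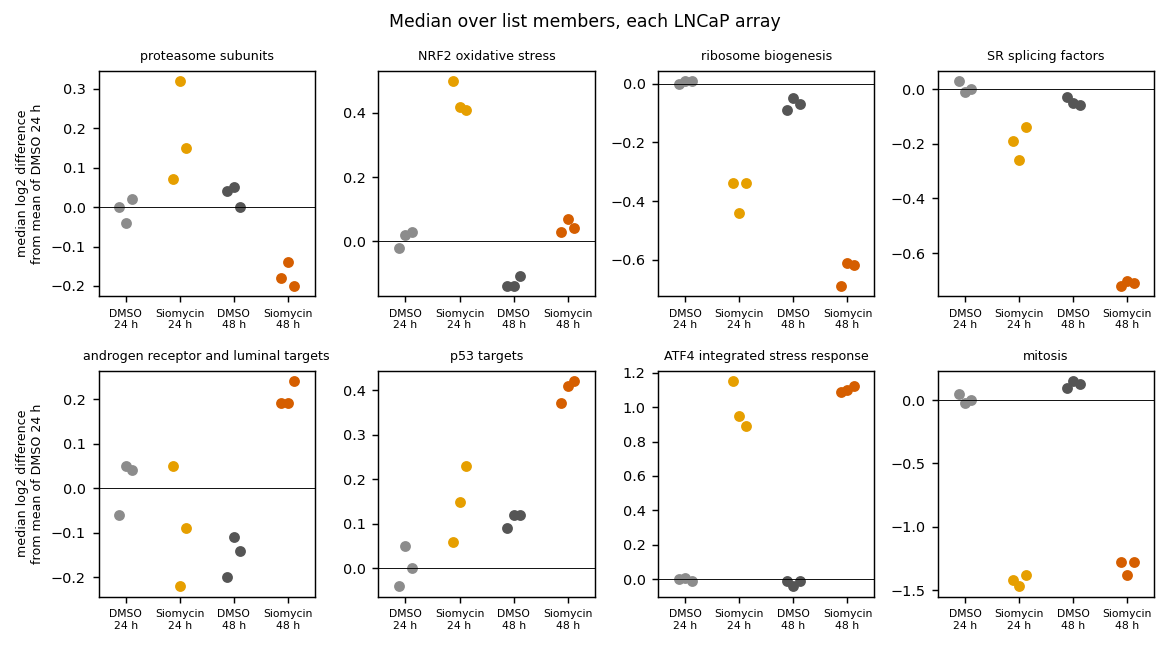
Median over the members of 8 gene lists of the log2 level minus the gene's mean in DMSO at 24 h, with a point for each LNCaP array. Proteasome genes lie above DMSO at 24 h of Siomycin and below it at 48 h. Mitosis genes lie low at both times.

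Ribosome biogenesis genes had been low at 24 h and fell further. Of 31 tested, 16 fell and 1 rose (median -0.33, and -0.06 in DMSO), and their median against DMSO was -0.32 at 24 h and -0.55 at 48 h. RRS1, a factor of large-subunit assembly, went from 9.72, 9.39 and 9.42 to 8.62, 8.81 and 8.45 (-0.88 ± 0.09, adjusted p = 1.3e-06). RRP9, a U3 small nucleolar ribonucleoprotein component, was at -0.83 (adjusted p = 0.00051), NOP2, a ribosomal RNA methyltransferase, at -0.69 (adjusted p = 1.9e-05), and NOP58, a core protein of box C/D particles, at -0.68 (adjusted p = 0.00053, lost in the 6-array fit). POLR1E, a subunit of RNA polymerase I, rose by 0.48 ± 0.08 (adjusted p = 2e-04, lost with median centring). The ribosomal proteins themselves gave 0 calls of 28 (median 0.03). The count of biogenesis genes lower was 10 with median centring and 6 in the 6-array fit.

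Splicing factors stood out among the falls and were gathered as families after the data had been seen, so their counts are a description. Among 11 tested SR proteins, which bind exons and recruit the spliceosome, 7 fell and 1 rose (median -0.53, and -0.03 in DMSO). SRSF2 read 11.73, 11.57 and 11.58 at 24 h and 10.30, 10.39 and 10.27 at 48 h, a change of -1.30 ± 0.08 (adjusted p = 2.9e-09). SRSF3 (-1.21 ± 0.15, adjusted p = 7.9e-06), SRSF1 (-1.11 ± 0.08, adjusted p = 1.1e-08), SRSF5 (-1.06 ± 0.11, adjusted p = 1e-06) and SRSF6 (-0.61 ± 0.07, adjusted p = 1.8e-06) fell too. SRSF4 rose by 0.25 (adjusted p = 0.0077, lost with median centring and in the 6-array fit). The probe of SRSF3 with the lower mean gave -0.35 (unadjusted p = 0.063).

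The heterogeneous nuclear ribonucleoproteins, which coat pre-mRNA, had 10 lower and 2 higher of 24. HNRNPM went from 12.40, 11.93 and 12 to 10.88, 10.79 and 10.86, without overlap (-1.27 ± 0.09, adjusted p = 1.9e-08), and its other kept probes gave -0.64, -1.58 and -1.52. HNRNPA1 was at -1.25 ± 0.16 (adjusted p = 1.9e-05) with a probe of lower mean at -0.19, and its many near-identical copies leave the probe's target uncertain. HNRNPH1 was at -0.50 (adjusted p = 0.0015, lost in the 6-array fit) under Siomycin and 0.45 in DMSO. Of the SR proteins 5, and of the ribonucleoproteins 6, were called lower in the difference from the DMSO step, beside 4.39% of all genes. In PC3 the Siomycin step lowered 9 of 11 SR proteins, where 23.9% of all genes were called lower, among them SRSF3 at -1.51 and SRSF1 at -1.22.

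Genes of the androgen receptor and the luminal prostate cell turned upward. Of 28 tested, 13 rose and 3 fell (median 0.28), whereas the median in DMSO was -0.16. The difference between the steps was called positive for 12 and negative for 2, beside 4.5% and 4.39% of all genes. TMPRSS2, an androgen-driven serine protease, read 11.32, 10.79 and 11.10 at 24 h and 12.62, 12.62 and 12.81 at 48 h (1.61 ± 0.23, adjusted p = 5.4e-05), beside DMSO means of 10.78 and 10.67. HPGD, which breaks down prostaglandins, rose from 5.84, 6.78 and 6.39 to 7.57, 7.99 and 7.72 (1.42 ± 0.17, adjusted p = 6.1e-06). The times did not overlap in either gene, and replicate 1 gave the lowest 24 h value of HPGD.

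Other members that rose were RAB3B, a vesicle GTPase (0.92 ± 0.24, adjusted p = 0.0076), ZBTB16 (0.85 ± 0.15) and SPDEF (0.73 ± 0.13), both transcription factors, FOLH1, the prostate-specific membrane antigen (0.63 ± 0.11), and SLC45A3, the sugar transporter prostein (0.54 ± 0.08, lost with median centring). The other probe of FOLH1, of like mean level, gave -0.05, and the FOLH1 call was lost with averaged probes and in the 6-array fit. FKBP5, a chaperone induced by steroid receptors, showed opposite steps, 0.39 under Siomycin (adjusted p = 0.029, lost with median centring, with the 12 or 6 arrays, and without replicate 2 at 24 h or replicate 2 or 3 at 48 h) and -0.67 in DMSO (adjusted p = 0.014), with a difference of 1.05 (adjusted p = 0.00071). KLK3, prostate-specific antigen, was at 7.74, 6.61 and 7.28 at 24 h and 7.17, 7.27 and 7.43 at 48 h, so its times overlapped and the change of 0.08 did not pass (adjusted p = 0.85). UGT2B15, which glucuronidates androgens (-1.13 ± 0.11, adjusted p = 7.3e-07), and ACP3, prostatic acid phosphatase (-0.89 ± 0.16, adjusted p = 0.00053), fell. The probes of UGT2B15 cannot be told from those of its close relatives. For 8 LNCaP markers, some on this list, the log2 of summed linear levels was 13.37 to 13.47 at 24 h and 14.05 to 14.2 at 48 h. Bright members weigh most in such a sum. Of the 8 markers 3 were called higher, 1 lower and 4 neither (median 0.16).

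Targets of p53 also rose, 11 of 24 against 1 that fell (median 0.26, and 0.10 in DMSO). CDKN1A, the cell cycle inhibitor p21, read 12.17, 11.73 and 11.86 at 24 h and 13.16, 13.21 and 13.21 at 48 h, a rise of 1.27 ± 0.12 (adjusted p = 5.9e-07) with no overlap. GADD45A, a growth arrest gene, rose by 1.08 ± 0.10 (adjusted p = 5.9e-07) and its second probe by 0.97. PMAIP1, the pro-apoptotic protein NOXA, rose by 0.91 ± 0.20 (adjusted p = 0.0029), a call lost when its probes were averaged and in the 6-array fit. TNFRSF10B, a death receptor, rose by 0.50 ± 0.07 (adjusted p = 2.5e-05, lost with median centring). MDM2, the ligase that degrades p53, was at -0.01 (adjusted p = 0.98), and PLK2, a polo-like kinase, was at -0.54 (adjusted p = 0.016). The PLK2 call was lost without background correction, from the deposited table, with median centring, in the 6-array fit and without replicate 2 of either time. The count of p53 targets higher was 7 with median centring and 6 in the 6-array fit, and between 8 and 10 when a single array was left out. The difference from the DMSO step was called positive for 5 members and negative for 1, beside 4.5% and 4.39% of all genes. In PC3, which lacks p53, 7 members of the list rose and 6 fell in the same step (median -0.11). Over all genes in PC3, 15.7% rose and 23.9% fell. CDKN1A was at -0.58 there (adjusted p = 0.00077). Whether p53 has a part in the difference between the lines was not tested.

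The ATF4 stress genes had been raised by 24 h and mostly held, with a median against DMSO of 1.01 at 24 h and 1.09 at 48 h. In the step 8 of 32 rose and 4 fell (median 0.12). The genes that rose furthest were ATF3 (1.19 ± 0.08, adjusted p = 5.9e-09), a stress transcription factor, DDIT3, which encodes CHOP (1.13 ± 0.08, adjusted p = 1.3e-08), and GDF15, a secreted stress cytokine (1.00 ± 0.09, adjusted p = 1.9e-07). ATF3 stood at 9.87, 9.56 and 9.64 and then at 10.87, 10.90 and 10.86, and DDIT3 at 10.34, 10.32 and 10.15 and then at 11.33, 11.43 and 11.44. SLC7A11, the cystine transporter, was at -0.74 (adjusted p = 2.8e-05) and at -0.72 in DMSO (adjusted p = 0.00099), and CHAC1, which degrades glutathione, was at -0.57 (adjusted p = 0.026, lost in the 6-array fit and without replicate 2 at 24 h or replicate 3 at 48 h).

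The cell cycle genes were low at both times. The median of 45 mitosis genes against DMSO was -1.38 at 24 h and -1.40 at 48 h, with 44 lower at each time, and the step had 8 higher and 5 lower (median 0.10, and 0.12 in DMSO). The difference from the DMSO step was called positive for 0 members and negative for 5 (median -0.03), beside 4.5% and 4.39% of all genes. MELK, a mitotic kinase, stood at 8.46, 8.82 and 8.80 and then at 9.0, 8.69 and 8.90, overlapping values with a change of 0.17 (adjusted p = 0.29). FOXM1 read 7.08, 7.10 and 7.56 at 24 h and 6.84, 6.65 and 6.81 at 48 h, a further change of -0.48 ± 0.12 (adjusted p = 0.0058) that was lost in the 6-array fit. Its second probe gave -0.69, and the DMSO step was 0.12.

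CDK1, the kinase that drives entry into mitosis, rose by 0.54 ± 0.13 (adjusted p = 0.0047), and PTTG1, securin, was at -0.40 (adjusted p = 0.0052), both lost with median centring and in the 6-array fit. The rise of CDK1 was not called as larger than its step in DMSO. The mitosis count moved to 5 higher without replicate 1 of either time and to 4 without replicate 3 at 48 h, and the count lower to 3 without replicate 2 at 48 h. Of 37 DNA replication genes 6 were called lower, such as FEN1, a flap nuclease (-0.50 ± 0.13, adjusted p = 0.0098), and MCM4, of the replicative helicase (-0.47 ± 0.16, adjusted p = 0.044), and their 24 h and 48 h arrays overlapped. The FEN1 call was lost without replicate 1 at 24 h and with the 12 or 6 arrays, and that of MCM4 without any array of the step except replicate 2 at 24 h. That count was 2 without replicate 1 at 24 h, 12 without replicate 2, 3 without replicate 3 and 2 without any of the 48 h arrays taken singly.

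Among 23 genes of the G1 phase 7 rose and 3 fell. CDKN1B, the CDK inhibitor p27, read 9.07, 9.16 and 9.09 and then 9.73, 9.86 and 9.79 (0.69 ± 0.09, adjusted p = 2.3e-05), and its difference from the DMSO step was 0.62 (adjusted p = 0.0049). CDC25A, a phosphatase that activates CDKs, was at -0.71 (adjusted p = 0.0035, lost with averaged probes and in the 6-array fit). The count higher was 2 with median centring and 3 in the 6-array fit, which called 0 lower.

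Metabolic genes went both ways. Of 29 glycolysis and hypoxia genes 10 rose and 9 fell. The falls included ALDOA, aldolase (-0.57, adjusted p = 2.4e-05), PKM, pyruvate kinase (-0.50, adjusted p = 0.0012, lost in the 6-array fit), and LDHA, lactate dehydrogenase (-0.42, adjusted p = 1e-04, lost in the 6-array fit and with averaged probes). NDRG1, a hypoxia and androgen responsive gene (0.72, adjusted p = 5.3e-05), and BNIP3L, a mitophagy receptor (0.52, adjusted p = 0.001, lost with median centring and in the 6-array fit), rose. The count higher was 6 without replicate 2 at 48 h, and 1 with median centring.

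Polyamines are made from ornithine and decarboxylated S-adenosylmethionine, and are removed by acetylation. Of 15 tested genes of polyamine and urea metabolism 4 rose and 3 fell. SAT1, which acetylates spermidine and spermine for export, read 12.11, 12.25 and 12.14 at 24 h and 13.14, 13.15 and 13.29 at 48 h (1.03 ± 0.07, adjusted p = 1.1e-08). ARG2, the mitochondrial arginase, went from 9.05, 8.66 and 8.97 to 10.09, 10.23 and 10.16 (1.26 ± 0.10, adjusted p = 6.8e-08). OAT, which converts ornithine towards proline and glutamate, rose by 0.67 (adjusted p = 2.9e-05). MAT2A, which makes S-adenosylmethionine, fell from 11.78, 11.52 and 11.60 to 10.45, 10.66 and 10.66, a log2 fold change of -1.04 ± 0.11 (adjusted p = 1.1e-06). ODC1, ornithine decarboxylase, was at -0.46 (adjusted p = 0.00029) and SRM, spermidine synthase, at -0.47 (adjusted p = 0.0042, lost in the 6-array fit). AMD1, which decarboxylates S-adenosylmethionine, was at 0.10 and did not pass. AZIN1, an inhibitor of antizyme that thereby spares ODC1 protein, was at 0.55 (adjusted p = 0.00038, lost with median centring and in the 6-array fit). The arrays of the 2 times did not overlap in any of the 7 called genes, as in 2636 of all 2805 called. The difference from the DMSO step was called for all 7 but ODC1 (-0.33, adjusted p = 0.072), and for 1091 of all 2805 called in the step.

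Genes of MHC class I presentation gave 6 higher and 1 lower of 18, with HLA-B at 0.78 ± 0.12 (adjusted p = 0.00016) and B2M, its light chain, at 0.41 ± 0.08 (adjusted p = 0.0014, lost with median centring and in the 6-array fit). HLA-B cannot be told from other class I genes by hybridisation alone, and that list had 1 member higher with median centring and 3 with averaged probes. Respiratory chain genes had 1 call of 29, and interferon-induced genes 3 higher and 1 lower of 33.

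**Figure D4:**
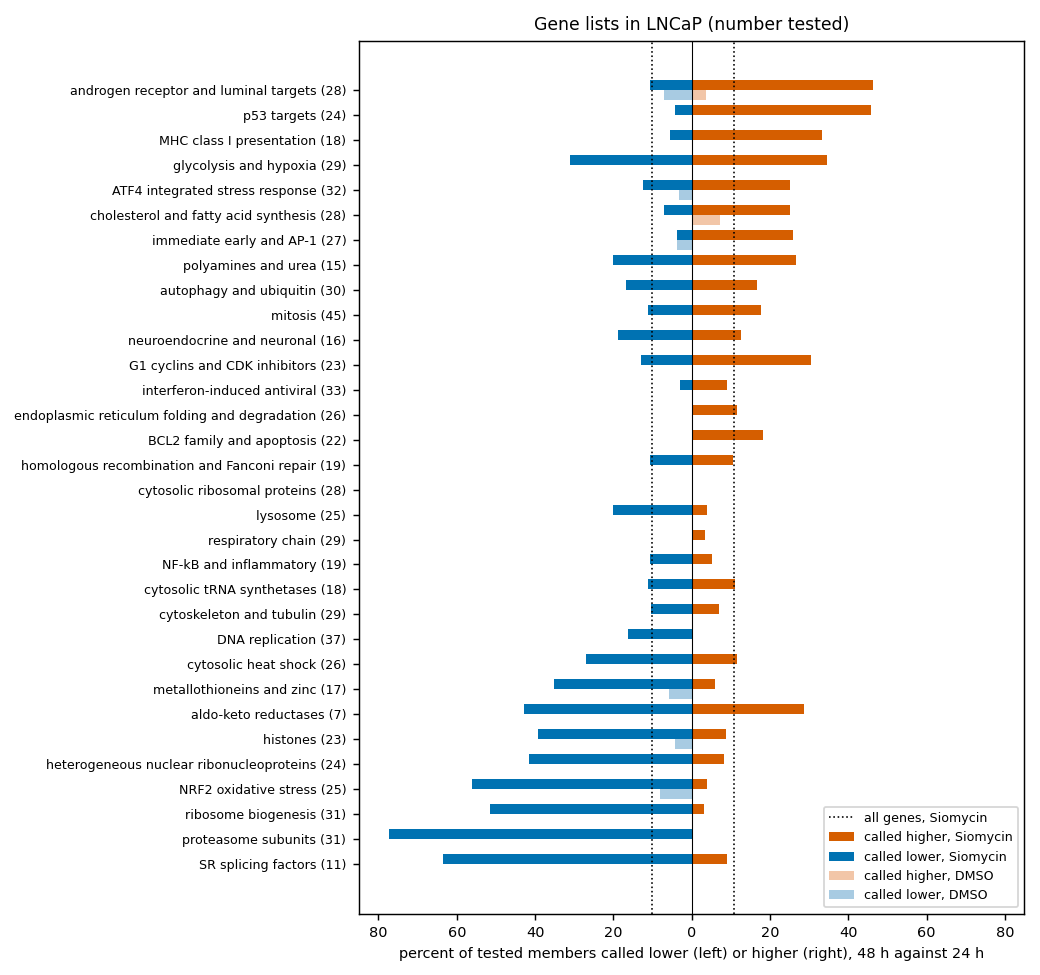
Percent of the tested members of each list called higher (right) or lower (left) between 24 h and 48 h in LNCaP, under Siomycin (dark) and in DMSO (pale), with the shares over all genes under Siomycin dotted (10.8% and 10.2%). Proteasome genes have the longest bar to the left, and androgen receptor and p53 targets the longest to the right.

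The step differed between the lines. In PC3 under Siomycin 5282 genes changed between the times (39.6%), and 1583 changed in both lines, which was 56.4% of the LNCaP set and 30% of the PC3 set. Of the shared genes 507 were higher in both, 671 lower in both and 405 opposite. The difference between the steps, LNCaP minus PC3, was called for 3822 genes (28.6%), 2397 positive (18%) and 1425 negative (10.7%). With median centring the share of positive calls was 94.2% in place of 62.7%, and the median difference over all genes was 0.353 in place of 0.055. The split of directions between the lines thus moved with the scaling.

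Genes were ranked by the difference between the lines only if also called in the LNCaP step, as 1407 of the 3822 were. Among these, the 6 largest positive differences included SH3PXD2A, an adaptor of invadopodia, OPLAH, an enzyme of glutathione turnover, and RBPMS2. The others were HPGD, ALDH1A3, which makes retinoic acid, and CFAP69. SH3PXD2A was not above background on any LNCaP array at 24 h of Siomycin and was at least 2.02-fold higher at 48 h (adjusted p = 7.2e-05), while in PC3 its step was -1.0. OPLAH read 7.67, 7.51 and 7.70 and then 8.56, 8.48 and 8.66 in LNCaP (0.94 ± 0.15, adjusted p = 0.00017) and stepped by -1.29 in PC3. ALDH1A3 rose by 1.13 ± 0.09 (adjusted p = 7.4e-08) in LNCaP, without overlap, and stepped by -0.96 in PC3.

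Genes not called in the LNCaP step were again left out of the ranking. Of the 6 most negative differences that remained, 4 were of histone genes, beside TCP11L2 and AKR1C2. In LNCaP 9 of 23 fell and 2 rose (median -0.26), and in PC3 13 rose and 5 fell (median 0.86, beside 15.7% and 23.9% of all genes). The difference between the lines was called negative for 15 members and positive for 3. H2BC6, an H2B gene, fell from 6.10, 6.27 and 5.97 to 5.19, 5.27 and 5.37 in LNCaP (-0.84 ± 0.11, adjusted p = 2.2e-05) and was at 2.04 in PC3. H2BC4 was at -0.82 and 1.94, and H3C4 at -0.80 and 2.33. H2BC21 moved little in LNCaP (-0.26, adjusted p = 0.019, lost with median centring, with the 12 or 6 arrays, without replicate 1 or 2 at 24 h and without replicate 1 at 48 h) against 2.67 in PC3. Histone genes have near-identical copies that a single probe can read together. TCP11L2, with the most negative of the ranked differences (-3.18), was above background on 1 of 3 LNCaP Siomycin arrays at each time. Its step of -0.48 there is thus at the edge of detection, whereas its PC3 step was 2.70.

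**Figure D5:**
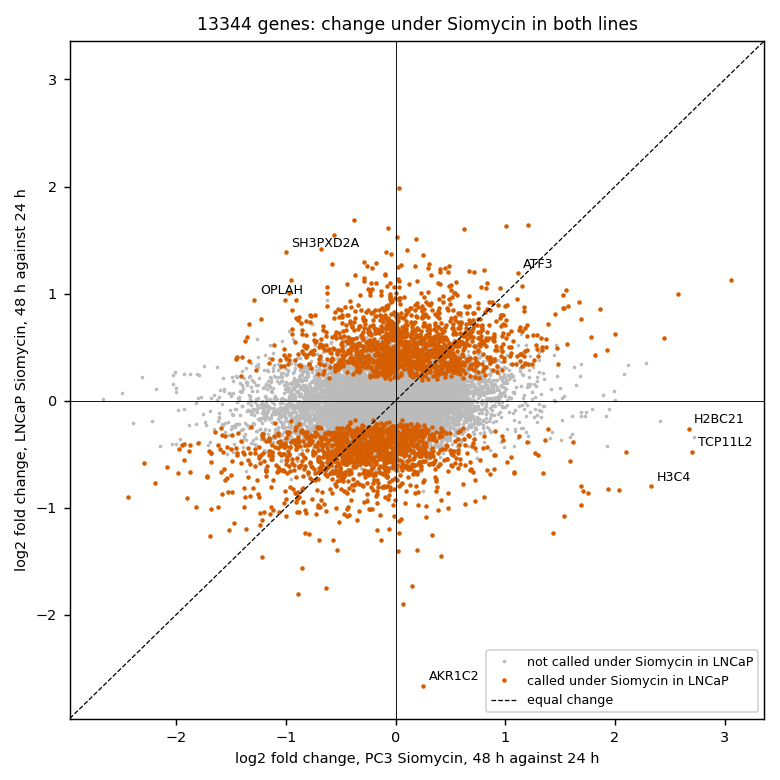
Log2 fold change from 24 h to 48 h of Siomycin in LNCaP (vertical) and PC3 (horizontal) for each gene tested, with genes called in LNCaP coloured. AKR1C2 is at -2.66 in LNCaP and at 0.25 in PC3, while H2BC21 and TCP11L2 lie far to the right at 2.67 and 2.70.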

How the data were processed

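Biotin-labelled cRNA from LNCaP and PC3 cultures was hybridised to Illumina bead arrays, and groups were taken from the labels. Per the file headers, each array's deposited file gave 47318 probes a linear intensity and a detection p-value. The deposited processed table holds log2 values. The submitters' processing notes name lumi, with the version not given in the sources used here. They equalled logged, quantile-normalized intensities without background correction to within 5.12e-09. The formula of the authors' detection p-value was not found in the sources used here. Bright and dim probes both had small values, with between 3215 and 4216 probes per array at a p under 0.01 while dimmer than background, so limma's neqc was adapted. Probes with a detection p above 0.9 set an array's background by their median signal, and the dimmer ones its SD.

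Normexp with an offset of 16, log2 and quantile normalization followed. The offset understates changes of dim probes. A probe was above background at a detection p under 0.01 with a signal over that median, and 25215 probes that met this on at least 3 arrays were kept. The platform's gene table names 1 gene for 30111 probes, and 13344 genes were tested, 3553 of them with several kept probes. Tests used limma 3.58.1 in R 4.3.3 (lmFit and eBayes, 8 group means over 24 arrays, 16 residual degrees of freedom), as two-sided tests with Benjamini-Hochberg adjustment across all genes. On simulated data the procedure called 39% of 100 planted changes of 0.5 log2 and 79% of 100 of 1 log2, with 8 false calls. Each simulated gene had the same SD in all groups, unlike these arrays. A gene that did not pass is thus not shown to be unchanged. Errors of fold changes are limma's standard errors, from a spread that all 8 groups share. They can understate the error of steps from the more scattered 24 h Siomycin arrays of LNCaP. A gene below background on all arrays of a group has a bound as its fold, taken against each array's lowest detected signal, or its own if higher.

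Named genes were MELK and FOXM1, the 12 highest and 12 lowest called changes, the 8 highest and lowest differences from the DMSO step, the 6 highest and lowest differences between lines, and up to 4 called members per direction in each of 32 lists (762 of 882 genes tested, 52 without a kept probe, 68 not analysed here). List members named beyond this rule were chosen after their values were seen. The members and lists were chosen with earlier results of these data known. The number of arrays limits precision. The number of value columns without a sample was 0.

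Alternatives were the background correction, normalization, probe filter, probe choice, arrays in the fit, a replicate block and each array left out.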

Additional observations from a re-analysis of the deposited data

Results flagged for a closer look

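The step from 24 h to 48 h differed between Siomycin and DMSO in LNCaP for 1187 genes, and between LNCaP and PC3 under Siomycin for 3822 genes, by the interaction terms of the limma fit. Among the genes named for the first difference, on the log2 scale and as Siomycin minus DMSO, the positive values were 1.91 for CFAP69, 1.80 for RASD1, 1.77 for TARP, 1.76 for GLYATL2, 1.72 for both TMPRSS2 and TXNIP, 1.65 for HPGD and 1.61 for SERPINA3. The negative values were -2.21 for AKR1C2, -2.10 for RPL22L1, -1.73 for AKR1C4, -1.69 for FAM13B, -1.64 for UFSP1, a protease of the UFM1 pathway, -1.62 for ACTRT3, an actin-related protein, -1.60 for CBLN2 and -1.56 for SNORD52. ACTRT3 was not above background on any 48 h Siomycin array.

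Among the genes named for the difference between lines, as LNCaP minus PC3, the positive values were 2.39 for SH3PXD2A, 2.23 for OPLAH, 2.11 for RBPMS2, 2.10 for HPGD, 2.09 for ALDH1A3 and 2.07 for CFAP69. SH3PXD2A was not above background on any LNCaP array at 24 h of Siomycin, so its 2.39 is a fitted value and not a measured difference, and TCP11L2 below was above background on 1 of 3 LNCaP Siomycin arrays at each time. The negative values were -3.18 for TCP11L2, -3.13 for H3C4, -2.93 for H2BC21, -2.92 for AKR1C2, -2.87 for H2BC6 and -2.76 for H2BC4.

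Probes with no gene in the platform's table also carried a signal. Of 7291 such probes above background, fitted on their own, 336 were called between 24 h and 48 h of Siomycin in LNCaP (4.61%), 156 higher and 180 lower, and 1 in DMSO.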

How the results depend on the processing

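Each Siomycin and DMSO count and each of 233 results for single genes, 14 of them added after the data had been seen, was recomputed under the alternatives, and 119 of the gene results kept their direction and call under all that could be run. Without background correction, or from the deposited processed table, 44 genes were lower in DMSO. Median centring gave 1141 genes for the Siomycin step (405 higher, 736 lower), 11 for DMSO (5 and 6), 157 for their difference (81 and 76), and for the difference between lines 3860 higher and 238 lower. With the 12 LNCaP arrays alone, DMSO gave 19 (9 and 10) and the difference 615 (326 and 289). With the 6 Siomycin arrays alone the step gave 777 (424 and 353), and 759 of these were among the 2805. That fit has fewer degrees of freedom and takes its spread from these 6 arrays, not from all 8 groups. The median gene SD was 0.194 at 24 h of Siomycin in LNCaP, and between 0.109 and 0.142 in the other groups. What caused these shifts was not tested. Leaving out each array in turn gave between 2206 and 2864 genes for the Siomycin step (1148 to 1440 higher, 1058 to 1428 lower), between 28 and 47 for DMSO (15 to 25, 13 to 24), between 892 and 1642 for their difference (461 to 789, 431 to 853) and between 3332 and 3983 for the difference between lines (2107 to 2465, 1225 to 1518). The highest count of the difference from DMSO came without replicate 1 at 24 h of Siomycin. With the mean of a gene's probes, MCL1 (-0.17), TAPBP (-0.04) and HNRNPDL (-0.20) changed sign. The call of SNORD52 in the difference from DMSO was lost with the 12 LNCaP arrays (adjusted p = 0.06). Departures from the group means had correlations of -0.023, 0.066 and -0.055 for same-numbered Siomycin arrays of the 2 times. Those with unlike numbers had between -0.054 and 0.077. Between DMSO and Siomycin at 24 h in LNCaP, same-numbered arrays had -0.08, -0.152 and -0.054, and unlike ones up to 0.175. With 3 arrays a group, these values cannot settle whether the numbers pair samples. With the replicate as a block the counts were 2756, 57, 1175 and 3808 in the order above. A slide block was not run, since the files name no slides. Probes below background have no order, and changes of dim probes are understated.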

Other observations

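Probes of the same gene went opposite ways between 24 h and 48 h of Siomycin in some genes. In a fit of all 17918 kept probes with a gene, 366 genes had at least 2 called probes, and 20 of these (5.46%) had probes called in both directions. The examples below were chosen after their values were seen. The probes of SYT7, a calcium sensor of vesicle fusion, gave 1.17 and -0.69. NRP1, a co-receptor of semaphorins and VEGF, gave 0.84 at a probe whose mean went from 7.37 to 8.21, and -0.42 at a probe that went from 8.06 to 7.64. ERBB3, a receptor of the EGF receptor family, gave 0.74 at a probe that went from 9.91 to 10.64, and -0.56 and -0.42 at its other probes. RBM12, an RNA-binding protein, gave 0.48 and -0.72, and its DMSO steps were 0.03 and -0.16. MCL1, an anti-apoptotic BCL2 relative, gave 0.39 (adjusted p = 0.0099) and -0.72 (adjusted p = 0.002). VIRMA, a subunit of the m6A methyltransferase complex, gave 0.55 and -0.55, and EIF2AK1, the heme-regulated kinase of the integrated stress response, 0.24 and -0.67. In ZWINT, a kinetochore protein, the brighter probes gave -0.70 and -0.41 and a dim probe 0.62. Which transcripts these probes read was not analysed here.

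Several lists outside the account above held mixed changes, beside 10.8% higher and 10.2% lower over all genes. Of 26 cytosolic heat shock genes 3 rose and 7 fell, with STIP1, a co-chaperone, at -0.55 (adjusted p = 0.00047) and HSPB1, a small heat shock protein, at 0.35 (adjusted p = 0.00072). Of 26 genes of folding and degradation in the endoplasmic reticulum 3 rose, a share near that of all genes, and 0 fell. Those that rose included DNAJB9, a co-chaperone (0.92, adjusted p = 9.8e-05), and HSPA5, the chaperone BiP (0.60, adjusted p = 0.00074). Of 17 metallothionein and zinc genes 1 rose and 6 fell, and of 25 lysosomal genes 1 rose and 5 fell, with CTSD, cathepsin D, at -0.78 (adjusted p = 0.0029). UFD1, a cofactor of the segregase VCP that delivers proteins to the proteasome, was at -0.99 (adjusted p = 0.0023, above background on 1 of 3 arrays at 48 h), and VCP itself at -0.40 (adjusted p = 0.003), among 5 lower and 5 higher of 30 autophagy and ubiquitin genes. The calls of STIP1, HSPB1, DNAJB9, CTSD, UFD1 and VCP were lost in the fit of the 6 Siomycin arrays alone, and those of HSPB1 and HSPA5 with median centring.

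Of 28 genes of cholesterol and fatty acid synthesis 7 rose and 2 fell. INSIG1, which holds the sterol sensor in the endoplasmic reticulum, read 9.53, 9.61 and 9.54 at 24 h and 10.62, 10.43 and 10.60 at 48 h (0.99 ± 0.09, adjusted p = 1.4e-07), so its difference from DMSO went from -1.31 to -0.54. The counts were 2 higher and 1 lower with median centring and 2 and 0 in the fit of the 6 Siomycin arrays. The count higher was 4 without replicate 3 at 48 h, and the count lower was 0 without replicate 1 at either time, 4 without replicate 2 at 24 h and 1 without replicate 3 at 48 h. Of 27 immediate early genes 7 rose and 1 fell, with JUN, a subunit of AP-1, going from 9.14, 8.99 and 8.96 to 9.84, 9.80 and 9.87 (0.80 ± 0.07, adjusted p = 1.3e-07). The gene that fell was KLF2, a Kruppel-like factor (-0.37, adjusted p = 0.026), a call lost without replicate 2 or 3 at 24 h or replicate 2 at 48 h, and the count higher was 2 with median centring and 1 in the fit of 6 arrays. Of 22 BCL2 family and apoptosis genes 4 rose and 0 fell. Among the 4 was MCL1, whose other called probe fell (-0.72). The calls of MCL1 and BCL2L2 were lost with median centring and in the 6-array fit. Of the remaining lists, 1 rose and 2 fell of 19 NF-kB genes, and 2 and 2 of 18 tRNA synthetases. The counts were 2 and 2 of 19 genes of homologous recombination and Fanconi repair. They were 2 and 3 of 16 neuroendocrine genes, and 2 and 3 of 29 cytoskeletal genes. Over all genes 10.8% rose and 10.2% fell, and the counts of tRNA synthetases and repair genes were near these shares.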
